A study of Rattus norvegicus with 9 samples.

Results

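Metallothioneins and the genes that move zinc were described in rat gastrocnemius, a fast calf muscle, after treatment with a glucocorticoid alone or together with an androgen. The set held 7 genes: the metallothioneins Mt2A and Mt1, the zinc exporters Slc30a1, Slc30a2 and Slc30a4, the zinc importer Slc39a14, and the metal sensor Mtf1. Members were the probe sets whose only gene symbol was one of these names, which gave 12 of 31042 probe sets and 7 of the 14217 genes with a symbol of their own. The set was chosen by the levels of Mt2A and Slc30a2, which differed strongly between the groups of these same arrays. The values of Mt2A and Slc30a2 are therefore given as a description, with no test, and tests are given for the other members.

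Total RNA came from male Wistar rats of about 250 g, with 1 Affymetrix array per animal, 3 animals in each of 3 groups and 9 arrays in all. Control rats received vehicle alone, which was propylene glycol, by osmotic pump for 7 days. The dexamethasone group received 0.7 mg/kg/day of this synthetic glucocorticoid in that vehicle. The third group, called both hormones here, received the same dexamethasone with testosterone, at a daily dose given as 28 mg/kg in the sample labels and as 20 mg/kg in the series design. No group received testosterone alone, so every value for testosterone is in the presence of dexamethasone.

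Metallothioneins are small, cysteine-rich proteins that bind zinc and copper and buffer the free zinc of the cell. Zinc leaves the cytosol through transporters of the Slc30 family and enters it through transporters of the Slc39 family. The transcription factor MTF1 senses free zinc and binds metal response elements in the promoters of metallothionein genes and of Slc30a1, and glucocorticoids are long known to induce metallothionein genes. In muscle, raised metallothionein transcripts have been described among the genes that accompany wasting.

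The promoters are shown first, because they set out where the letters of the metal response element lie in the genes described below. The 250 bases before the start site are printed from RefSeq (GRCr8), 5′ to 3′ on the strand of the gene, and 6 of the 7 members matched an entry. Capitals mark the core of the metal response element, TGCACNC or TGCGCNC, searched on both strands, so that a core on the other strand reads as its reverse complement. Mt2A lies on chromosome 19 (chr19:10838709-10838958, minus strand), Mt1 beside it with no gene between (chr19:10832976-10833225, minus strand), and Slc30a1 on chromosome 13 (chr13:106021769-106022018, plus strand). Slc30a2 has start site 1 (chr5:151843201-151843450, plus strand) and start site 2 (chr5:151843931-151844180, plus strand).
Mt2A: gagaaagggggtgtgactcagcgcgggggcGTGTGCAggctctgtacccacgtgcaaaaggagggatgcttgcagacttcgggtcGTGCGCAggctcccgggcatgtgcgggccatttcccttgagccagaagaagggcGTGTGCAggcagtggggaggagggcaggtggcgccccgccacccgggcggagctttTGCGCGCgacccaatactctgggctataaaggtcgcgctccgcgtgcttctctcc
Mt1: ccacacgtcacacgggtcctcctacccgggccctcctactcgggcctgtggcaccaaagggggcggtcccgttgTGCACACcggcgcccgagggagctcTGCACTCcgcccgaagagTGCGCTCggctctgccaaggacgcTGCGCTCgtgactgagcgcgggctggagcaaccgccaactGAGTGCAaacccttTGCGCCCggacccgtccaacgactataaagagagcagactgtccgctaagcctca
Slc30a1: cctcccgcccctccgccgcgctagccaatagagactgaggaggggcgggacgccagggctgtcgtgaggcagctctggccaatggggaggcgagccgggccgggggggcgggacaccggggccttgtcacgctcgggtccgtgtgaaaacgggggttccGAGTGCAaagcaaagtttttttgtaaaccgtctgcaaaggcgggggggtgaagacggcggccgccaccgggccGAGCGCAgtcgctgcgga
Slc30a2, start site 1: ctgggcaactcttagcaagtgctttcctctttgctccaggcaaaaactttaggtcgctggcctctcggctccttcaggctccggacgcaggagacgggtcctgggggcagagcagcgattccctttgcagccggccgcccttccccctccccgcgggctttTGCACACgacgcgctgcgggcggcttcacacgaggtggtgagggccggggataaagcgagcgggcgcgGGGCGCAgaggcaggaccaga
Slc30a2, start site 2: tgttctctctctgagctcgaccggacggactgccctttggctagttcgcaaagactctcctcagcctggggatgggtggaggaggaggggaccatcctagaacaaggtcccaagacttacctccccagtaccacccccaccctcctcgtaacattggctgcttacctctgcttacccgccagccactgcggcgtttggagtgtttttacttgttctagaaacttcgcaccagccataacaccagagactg

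The Mt2A window held 4 cores, whose first bases lay 220, 165, 111 and 55 bases before the start, and the Mt1 window held 6. Of 33469 promoter windows of the same length, 0.266% held 4 or more cores and 0.0269% held 6 or more. The windows of Slc30a1, Slc30a2 at start site 1, Slc30a4 and Mtf1 each held 2, a number reached by 4.9% of all windows. These counts were not matched on base composition, and G and C made up 66.4% of the Mt1 window. Start site 2 of Slc30a2 held 0 cores but 3 copies of TGTTCT, the hexamer of the glucocorticoid response element, again on either strand, as 0.314% of windows did. The full palindrome of the glucocorticoid response element was in 0 of the members' windows and in 0.373% of all windows. A match is only a run of letters in this window, and elements farther away were not searched.

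The deposited intensities fell into 3 array sets. Set A held the 4 arrays that had not been brought to a common scale (vehicle 1, vehicle 3, dexamethasone 1 and both hormones 1). Set B held vehicle 2, dexamethasone 2 and both hormones 2. Set C held dexamethasone 3 and both hormones 3, in which the 3′ to 5′ ratio of the Gapdh control probe sets was 4.94 and 6.22 against 1.06 to 1.17 in the other 7 arrays. Set C held no vehicle array. All levels below are log2(intensity + 16) after quantile normalization, and differences are on the same scale, where the added 16 makes the change of a dim probe set look smaller. Muscle fibre markers, 8 of 8 above the filter on dim probe sets, summed to 17.65 to 17.73 in the vehicle and dexamethasone arrays. With both hormones they summed to 17.33 to 17.64. Of these markers, Myh7 differed by -2.4 ± 1.24 between both hormones and dexamethasone (adjusted p = 0.536 in limma). Within sets A, B and C the Myh7 difference was -6.23, -0.19 and -0.77. The median of the 8 markers there was -0.1, and 3 lay above 0. Over 18625 probe sets tested with limma, 196 passed an adjusted p of 0.05 for dexamethasone against vehicle, 106 higher and 90 lower. With median scaling in place of quantile normalization the split was 94 higher and 41 lower, and the median of all probe sets moved from 0.01 to 0.13. The comparison of both hormones with dexamethasone had 21 passing. That with vehicle had 0 passing in limma, with 1139 (6.12%) at an unadjusted p under 0.05.

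Of the 12 member probe sets, 8 passed the filter and 4 were too dim to be tested. The dim ones were the only probe sets of Mt1 and Slc30a1, 1 of the 2 of Slc30a4 and 1 of the 3 of Mtf1. The Slc30a2 probe set 1378896_at passed through its dexamethasone arrays, since its vehicle mean of 4.81 lay under the filter level of 5.75.

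Mt2A stood far higher in all dexamethasone arrays than in any other array, and lay much nearer to the vehicle level, though above it, when testosterone was given as well. Its probe set 1388271_at read 8.29, 8.43 and 7.97 in vehicle arrays 1 to 3. In the dexamethasone arrays it read 12.95, 11.06 and 11.43. With both hormones it read 8.97, 9.32 and 9.24. The dexamethasone array with the lowest value lay above every vehicle and every both-hormones array, and dexamethasone 1 had the highest value. For all tested probe sets, the both-hormones arrays lay wholly below the dexamethasone arrays in 7.35%. Spread within the dexamethasone group (SD 1, n = 3) was wider than within vehicle (SD 0.24, n = 3) or both hormones (SD 0.19, n = 3).

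The difference between dexamethasone and vehicle was 3.58 ± 0.43 (SE) for Mt2A, a 12-fold ratio, the sixth highest difference of all tested probe sets. Within set A it was 4.82 and within set B 2.63. The difference between both hormones and dexamethasone was -2.64 ± 0.43, with -3.99 in set A, -1.74 in set B and -2.19 in set C. These comparisons share the dexamethasone arrays. Without dexamethasone 1 they came to 3.01 and -2.07. Between both hormones and vehicle the difference was 0.94 ± 0.43, with 0.83 in set A and 0.89 in set B, and the groups did not overlap, as for 7.53% of tested probe sets in the same direction. The deposited intensities of Mt2A in set B were 576.8 with vehicle, 3473 with dexamethasone and 1062.2 with both hormones. In set C, on the same scale, they were 5050.2 with dexamethasone and 988.1 with both hormones. Set A, not brought to that scale, had 148.8 and 118 with vehicle, 5247.5 with dexamethasone and 190.7 with both hormones.

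**Figure D1:**
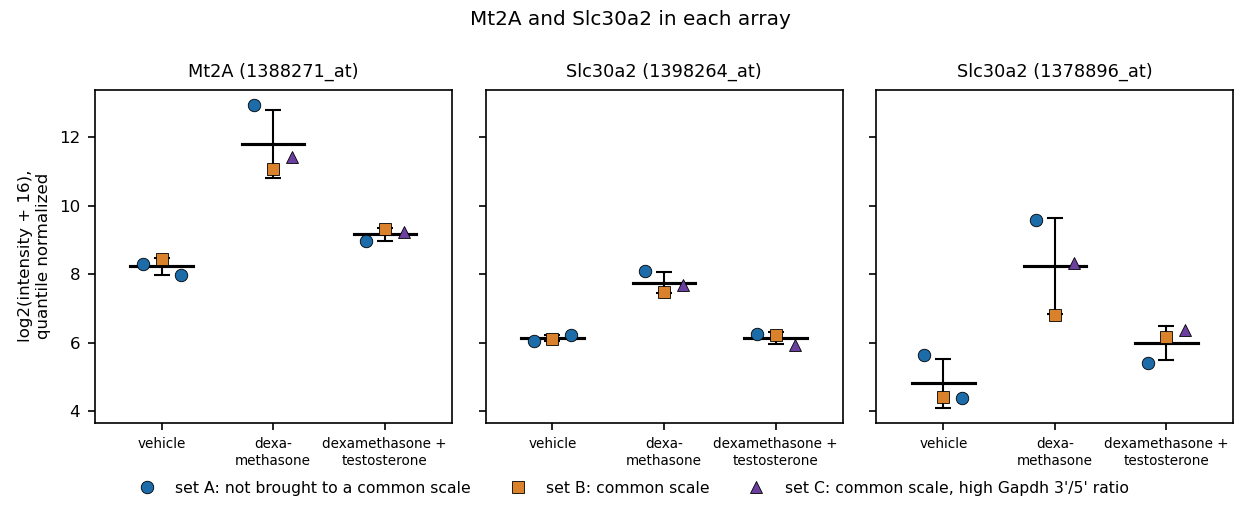
Level of Mt2A and of the 2 Slc30a2 probe sets in each of the 9 arrays, as log2(intensity + 16) after quantile normalization. Points are arrays, with shape and colour for the array set, and the line and bar are the group mean and SD (n = 3). Dexamethasone arrays of Mt2A lie between 11.06 and 12.95, above the 7.97 to 9.32 of the other 6.

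Mt1, the neighbour of Mt2A on chromosome 19, gave no comparable separation with its own probe set. That probe set, 1388267_a_at, was dim. It read 5.93, 4.15 and 5.4 with vehicle, 7.01, 6.04 and 4.62 with dexamethasone, and 4.41, 5.31 and 5.54 with both hormones. The groups overlapped in every comparison. The difference between dexamethasone and vehicle was 0.73 ± 0.64, and that between both hormones and dexamethasone -0.8 ± 0.64, with adjusted p of 0.742 and 0.803 in a limma fit without the filter. Set C differed from the others in sign for the second of these, at 0.92 against -2.61 in set A and -0.72 in set B. The value of Mt1 is thus imprecise, and its level here does not show whether it moved with Mt2A.

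A further probe set, 1371237_a_at, carries several symbols in the platform annotation (Mt1f, Ttr and Mt1), so no gene is named from it and it is not a member. It was singled out after its values were seen. It read 6.58, 6.56 and 6.27 with vehicle, 12.5, 9.71 and 9.55 with dexamethasone, and 6.56, 7.51 and 7.67 with both hormones. The lowest dexamethasone array again lay above all the others. Its difference was 4.11 ± 0.69 for dexamethasone against vehicle and -3.34 ± 0.69 for both hormones against dexamethasone. The probe set that carries Ttr alone, 1367598_at, differed by -0.02 ± 0.23 between dexamethasone and vehicle.

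Slc30a2, a zinc exporter known for loading zinc into vesicles and for secreting it into milk, was high with dexamethasone and low elsewhere in both of its probe sets. The brighter one, 1398264_at, read 6.06, 6.12 and 6.22 with vehicle, 8.08, 7.48 and 7.67 with dexamethasone, and 6.26, 6.21 and 5.93 with both hormones. All 3 dexamethasone arrays lay above the other 6, and the both-hormones arrays overlapped the vehicle arrays. The difference was 1.61 ± 0.21 for dexamethasone against vehicle, with 1.94 in set A and 1.36 in set B. Between both hormones and dexamethasone it was -1.61 ± 0.21, with -1.82, -1.26 and -1.75 in sets A, B and C. Both hormones differed from vehicle by 0 ± 0.21, with 0.12 in set A and 0.09 in set B.

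The second Slc30a2 probe set, 1378896_at, showed the same separation of dexamethasone from the rest with more scatter. It read 5.63, 4.4 and 4.39 with vehicle, 9.58, 6.82 and 8.32 with dexamethasone, and 5.4, 6.17 and 6.38 with both hormones. Its differences were 3.43 ± 0.64 for dexamethasone against vehicle and -2.26 ± 0.64 for both hormones against dexamethasone. Within set B the second difference was only -0.65, against -4.18 in set A and -1.94 in set C. Both hormones against vehicle differed by 1.18 ± 0.64, with 0.39 in set A and 1.77 in set B. The size for this dim probe set follows the pseudocount: for dexamethasone against vehicle it was 4.81 with a pseudocount of 1 and 2.25 with a pseudocount of 64, and for both hormones against vehicle 2.19 and 0.56. The order of the 3 dexamethasone arrays was the same in Mt2A and both Slc30a2 probe sets, highest in dexamethasone 1, then dexamethasone 3, then dexamethasone 2.

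Marker lists of other cell types were set beside Mt2A and Slc30a2. The one marker of the lists described here that passed with limma was the fibroblast gene Mfap5, which fell by 1.75 ± 0.29 with dexamethasone (adjusted p = 0.0338). The neutrophil list had 1 of 4 markers above the filter, S100a9, at 5.31 to 5.92 with vehicle, 6.1 to 7.37 with dexamethasone and 4.31 to 5.99 with both hormones. It was kept through its dexamethasone arrays, since its means with vehicle (5.6) and both hormones (5.36) lay under the filter level of 5.75. S100a9 did not pass for dexamethasone against vehicle (adjusted p = 0.31) or for both hormones against dexamethasone (adjusted p = 0.335), and the dim S100a8 went the other way, by -0.22 and 0.41. The satellite cell list had 1 of 4 above the filter, Cdh15, at 7.77 to 8.65, 9.16 to 9.75 and 8.02 to 8.49, which did not pass (adjusted p = 0.0941 and 0.148). The fibroblast list, 8 of 8 measured, summed to 14.6 to 15.17, 12.09 to 13.91 and 13.58 to 14.77. The endothelial list, 5 of 6, summed to 10.92 to 11.27, 10.53 to 10.87 and 10.58 to 10.7. Its markers were uneven for dexamethasone against vehicle, with a median of -0.6 and 1 of 5 above 0. Kdr differed by -0.93 ± 0.23 (adjusted p = 0.0967 in limma), Tek by -0.09 ± 0.24 and Pecam1 by 0.02 ± 0.19. The erythroid list, 2 of 4, summed to 12.39 to 12.91, 10.2 to 12.18 and 11.42 to 12.57. The hepatocyte list had Alb, Apoa1 and Fgb below the filter and Ttr at 6.55 to 7.25, 6.67 to 7.03 and 6.61 to 7.01. The summed levels of the macrophage, adipocyte, Schwann cell, and smooth muscle and pericyte lists overlapped between dexamethasone and vehicle. The smooth muscle and pericyte sum rests largely on Des, by far its brightest marker, at means of 14.09 with vehicle and 14.14 with dexamethasone. In that list Rgs5 differed by -1.25 ± 0.38 (adjusted p = 0.155 in limma). Its dexamethasone arrays lay below its vehicle arrays, as for 11.5% of all genes, and 2 of the 5 markers of the list lay above 0. With both hormones the adipocyte list, 4 of 6, summed to 10.49 to 10.92, below the 10.97 to 11.5 with vehicle. That sum rests largely on its brightest marker Fabp4, which differed by -0.63 ± 0.22 (adjusted p = 0.802 in limma). Plin1 differed by -0.05 ± 0.25 and Adipoq by 0.2 ± 0.39, and 1 of the 4 lay above 0. In the macrophage list Cd163 differed by 1.04 ± 0.28 for dexamethasone against vehicle (adjusted p = 0.119 in limma). Of the 5 tested macrophage markers 2 lay above 0 there. The part of these cells in the Mt2A and Slc30a2 values was not tested, and in whole muscle fewer cells of a type and less RNA per cell cannot be told apart.

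Slc30a1, the exporter of the plasma membrane and a known target of MTF1, was too dim to be tested. It read 5.63, 6.66 and 5.65 with vehicle, 6.38, 5.65 and 5.07 with dexamethasone, and 5.92, 4.7 and 4.25 with both hormones. The groups overlapped in all comparisons, and dexamethasone differed from vehicle by -0.28 ± 0.5. Both hormones differed from vehicle by -1.02 ± 0.5, with 0.28 in set A and -1.96 in set B, at an adjusted p of 0.873 in limma without the filter.

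Slc30a4, an exporter of intracellular vesicles, was slightly higher with dexamethasone without passing the test. Its brighter probe set, 1370357_at, read 8.47, 8.08 and 8.76 with vehicle, 9.2, 8.63 and 9.22 with dexamethasone, and 8.78, 8.84 and 8.85 with both hormones. The vehicle and dexamethasone arrays overlapped, since vehicle 3 lay above dexamethasone 2. The difference was 0.58 ± 0.24 (95% interval 0.04 to 1.12), with an unadjusted p of 0.0368 and an adjusted p of 0.284 in limma. Within sets A and B it was 0.58 and 0.55. Both hormones differed from dexamethasone by -0.2 ± 0.24 (adjusted p = 0.846) and from vehicle by 0.38 ± 0.24 (adjusted p = 0.854). In the last of these the groups did not overlap, as for 7.53% of tested probe sets in that direction. The dim probe set of Slc30a4, 1378230_at, had group means of 4.96, 5.22 and 5.37.

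Slc39a14, an importer of zinc and iron that inflammation and wasting are known to raise, did not differ detectably between the groups. Its brighter probe set, 1373984_at, read 8.38, 8.76 and 8.18 with vehicle, 8.17, 8.11 and 8.6 with dexamethasone, and 8.45, 8.03 and 8.89 with both hormones. The groups overlapped throughout. Dexamethasone differed from vehicle by -0.14 ± 0.27, with a 95% interval of -0.75 to 0.47, and an adjusted p of 0.842 in limma. Both hormones differed from dexamethasone by 0.16 ± 0.27 (95% interval -0.45 to 0.77, adjusted p = 0.903). The second probe set, 1382919_at, gave -0.25 ± 0.26 and 0.14 ± 0.26 for the same comparisons, with adjusted p of 0.702 and 0.918. The direction of the small differences of Slc39a14 reversed under some settings.

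Mtf1, the zinc sensor that activates metallothionein genes, did not differ detectably between the groups either. Its brightest probe set, 1377124_at, read 9.78, 9.58 and 9.87 with vehicle, 9.49, 9.3 and 9.67 with dexamethasone, and 9.85, 9.58 and 10.09 with both hormones. The vehicle and dexamethasone arrays overlapped, because vehicle 2 lay below dexamethasone 3. The difference was -0.26 ± 0.2 (95% interval -0.71 to 0.2, adjusted p = 0.593) for dexamethasone against vehicle. Both hormones differed from dexamethasone by 0.35 ± 0.2 (95% interval -0.1 to 0.81, adjusted p = 0.591), with 0.36, 0.27 and 0.42 in sets A, B and C. The probe set 1390574_at gave 0 ± 0.24 and -0.05 ± 0.24, and the dim 1393372_at gave -0.04 ± 0.53 and 0.55 ± 0.53. A transcript level does not measure the activity of MTF1, which is set by zinc binding.

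**Figure D2:**
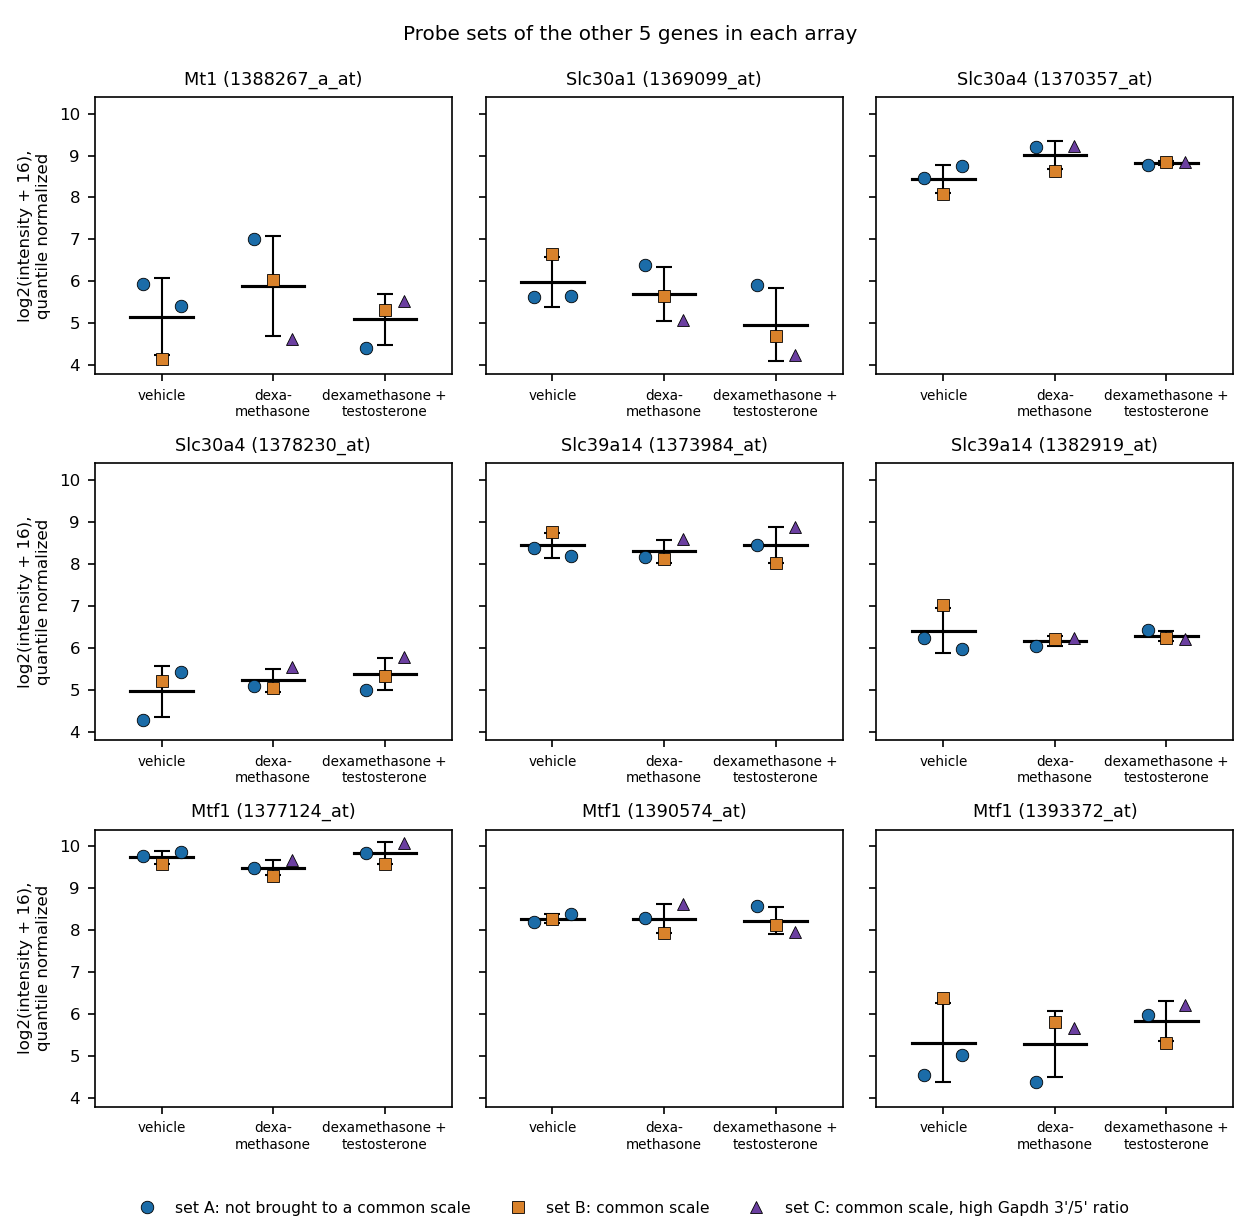
Level of the 9 probe sets of Mt1, Slc30a1, Slc30a4, Slc39a14 and Mtf1 in each array, on the scale log2(intensity + 16) after quantile normalization, with the group mean and SD (n = 3) and shapes for the array sets. The groups overlap in most panels, and the Slc30a4 probe set 1370357_at is at 8.08 to 8.76 with vehicle and 8.63 to 9.22 with dexamethasone.

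Counted together, the members that were not picked for their response had 5 tested probe sets, and 0 of them passed for dexamethasone against vehicle with limma, where 1.05% of all tested probe sets passed. One of the 5, that of Slc30a4, had an unadjusted p under 0.05, as did 15.5% of all tested probe sets. Set against dexamethasone, both hormones had 0 of 5 passing, beside 0.113% of all, and set against vehicle 0 of 5, beside 0% of all, with 0 of 5 under an unadjusted 0.05 in either. With so few tested probe sets, 0 is also what the share of all probe sets would give. Mt2A and the 2 Slc30a2 probe sets did not overlap between dexamethasone and vehicle, as 12.5% of all tested probe sets did in that direction. They chose the set, so their separation is no evidence beyond itself.

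**Figure D3:**
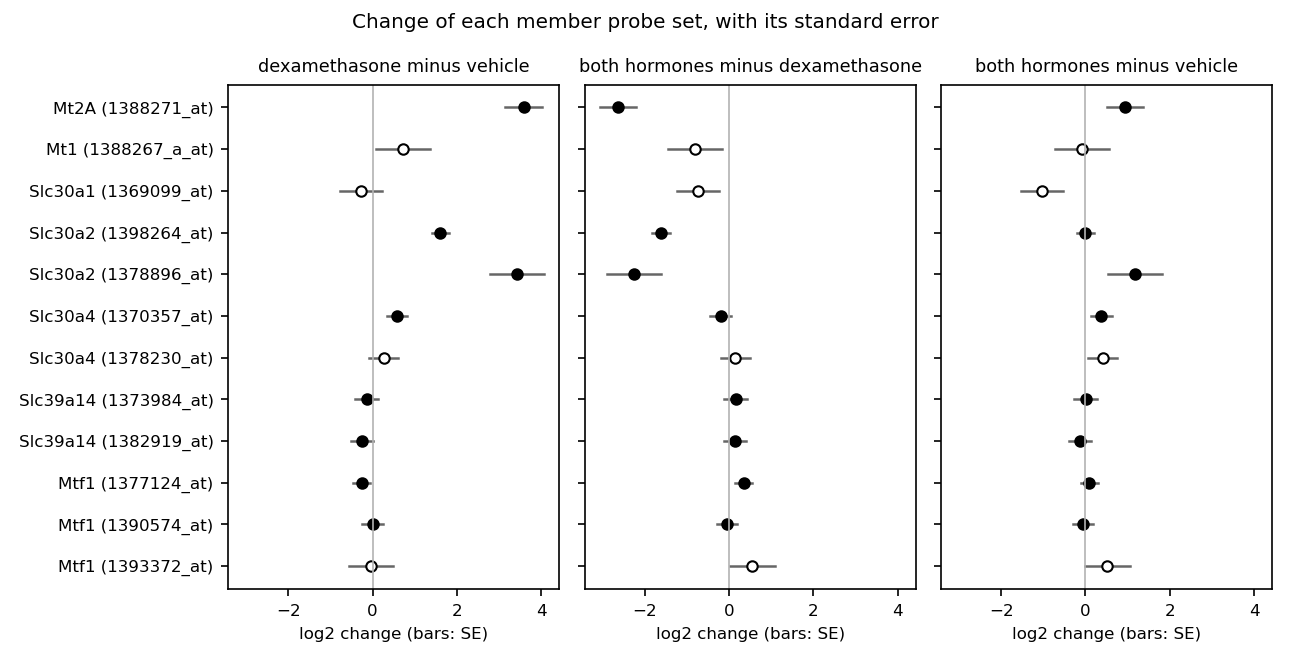
Difference in log2 level for each member probe set in the 3 comparisons, with its standard error as a bar. Filled points passed the filter on dim probe sets and open points did not. Mt2A and the Slc30a2 probe sets stand away from 0 in the left and middle panels, at 1.61 to 3.58 and at -2.64 to -1.61.

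The other zinc transporters on the arrays were counted by family. Among 7 listed exporters 6 were measured and 5 tested. For dexamethasone against vehicle 0 of 5 passed with limma, against 1.3% of all 10428 genes, and 0 had an unadjusted p under 0.05, with a median difference of -0.03 beside 0.04 for all genes. Among 13 listed importers 11 were measured and 7 tested, 0 of 7 passed, 2 had an unadjusted p under 0.05, as did 17.6% of all genes, and the median was -0.44. Only 1 of the 7 importers lay above 0. The arrays of 3 importers and of 1 of the 5 exporters did not overlap in the lower direction, as for 11.5% of all genes. Of these, the importer Slc39a6 passed the filter through its vehicle arrays. Its means with dexamethasone (5.61) and both hormones (5.65) lay under the filter level of 5.75, which favours a lower value. With both hormones against dexamethasone the importers had a median of 0.16 beside 0 for all genes. Of the importers 7 of 7 lay above 0, though some by less than their SE, such as Slc39a6 (0.04 ± 0.43) and Slc39a7 (0.13 ± 0.25). Slc39a6 differed in sign between array sets, at -1.04 in A and 1.61 in B. The share of all genes above 0 was not counted. Of the 7 importers, 1 had an unadjusted p under 0.05, as did 11.7% of all genes, and 0 passed, against 0.144% of all genes. These comparisons share the dexamethasone arrays. The exporters had a median of -0.11 there, and 0 of 5 passed, with 0 under an unadjusted 0.05. Between both hormones and vehicle the exporter median was -0.13 and the importer median -0.29, and 0 of 5 and 0 of 7 passed with limma, as did 0% of all genes, with 1 of each family under an unadjusted 0.05, beside 6.28% of all genes.

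Slc39a1, a zinc importer of the plasma membrane, had the lowest unadjusted p of these families. It read 11, 11.22 and 11.19 with vehicle, 9.76, 10.45 and 10.21 with dexamethasone, and 10.72, 10.98 and 10.69 with both hormones. The dexamethasone arrays all lay below every other array. In the direction from dexamethasone to both hormones, 7.68% of all genes had groups that did not overlap. The difference was -0.99 ± 0.22 for dexamethasone against vehicle, with -1.33 in set A and -0.77 in set B, and an adjusted p of 0.0675 in limma. It passed in 3 of 20 other settings, over which the adjusted p ran from 0.0231 to 0.311. Both hormones differed from dexamethasone by 0.66 ± 0.22 (adjusted p = 0.306).

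Slc39a10, another importer, read 7.17, 7.23 and 7.37 with vehicle, 6.63, 5.59 and 6.88 with dexamethasone, and 6.82, 6.35 and 6.42 with both hormones. Its dexamethasone arrays lay below its vehicle arrays and overlapped the both-hormones arrays. The difference from vehicle was -0.89 ± 0.32, with an adjusted p of 0.223 in limma, and -0.5 without dexamethasone 2. Slc39a6 and Slc39a13 differed by -0.78 ± 0.43 and -0.44 ± 0.22, with adjusted p of 0.437 and 0.378, and by -0.48 and -0.23 without dexamethasone 2. Among exporters Slc30a7, of the secretory pathway, differed by -0.24 ± 0.23 and Slc30a9 by -0.25 ± 0.22, and the sign of Slc30a9 turned to 0.05 with median scaling. For both hormones against dexamethasone, Slc30a3 differed by -0.66 ± 0.29 (adjusted p = 0.457) and Slc39a3 by 0.35 ± 0.19 (adjusted p = 0.569), or 0.22 without both hormones 3.

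**Figure D4:**
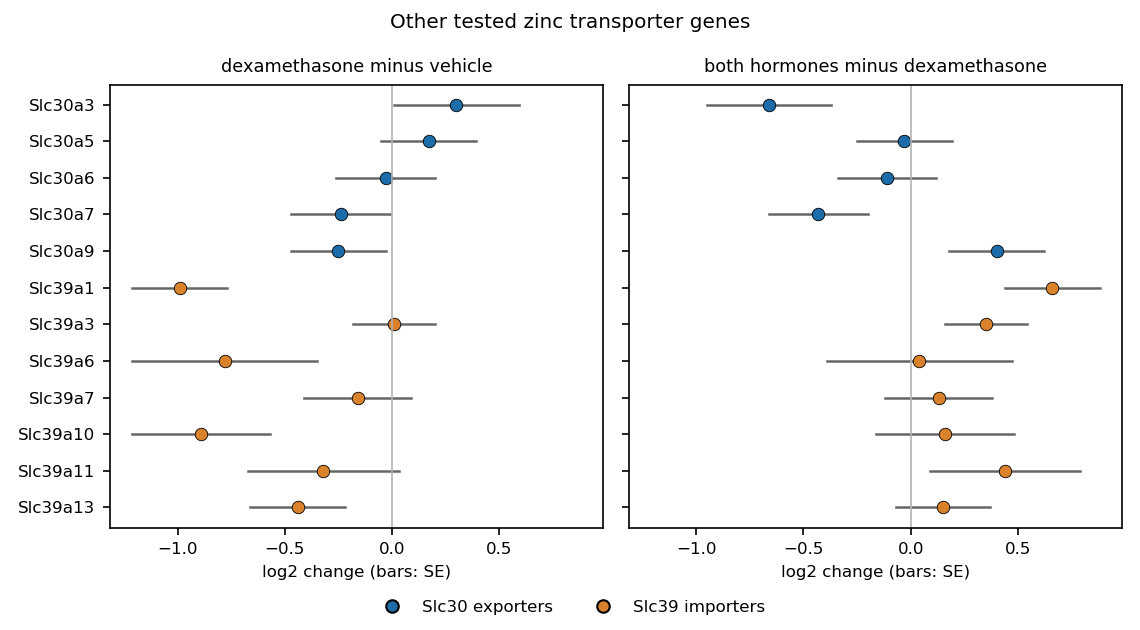
Difference in log2 level, with its standard error as a bar, for the 5 exporters and 7 importers tested outside the members, for dexamethasone against vehicle (left) and both hormones against dexamethasone (right). No gene passed the adjusted test. Slc39a1 lies at -0.99 on the left and at 0.66 on the right.

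The remaining metallothioneins and the genes linked to MTF1 gave no passing difference. Mt3, the brain-enriched metallothionein next to Mt2A on the chromosome, was the only other one bright enough to test. It differed by 0.21 ± 0.57 for dexamethasone against vehicle (adjusted p = 0.9 in limma) and by 0.81 ± 0.57 for both hormones against dexamethasone (adjusted p = 0.68). The second of these was -1.2 in set A, 1.66 in set B and 1.97 in set C, and 0.42 without dexamethasone 3 and 1.46 without dexamethasone 1. Of 5 genes listed as MTF1 targets outside the members, 4 were tested and 0 passed in either comparison (0 and 1 under an unadjusted 0.05, beside 17.6% and 11.7% of all genes), with medians of 0.19 and -0.13. Gclc, which catalyses the first step of glutathione synthesis, differed by 0.34 ± 0.24 with dexamethasone, at an adjusted p of 0.554, and by 0.07 without vehicle 2. Ndrg1, a gene induced by hypoxia and metals, differed by 0.37 ± 0.27 (adjusted p = 0.554), and by 0.19 without vehicle 2 and 0.64 without vehicle 3. Between both hormones and dexamethasone Ndrg1 differed by -0.79 ± 0.27, with -0.56, -1.01 and -0.81 in sets A, B and C. It was the 1 listed target under an unadjusted 0.05 there (adjusted p = 0.315 in limma).

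Among the receptors and signals that act on metallothionein genes, 9 were listed, 5 were tested and 0 passed in either of these comparisons, with 1 under an unadjusted 0.05 in each, beside 17.6% and 11.7% of all genes. Il6r, the receptor subunit for interleukin-6, read 6.35, 6.46 and 7.02 with vehicle, 8.99, 8.75 and 8.03 with dexamethasone, and 6.9, 7.33 and 8.4 with both hormones. The dexamethasone arrays lay above the vehicle arrays, as for 15.2% of all genes, and both hormones 3 lay inside the dexamethasone range. The difference from vehicle was 1.98 ± 0.41 with an adjusted p of 0.0585 in limma, which passed in 7 of 20 other settings. The glucocorticoid receptor gene Nr3c1 differed by -0.37 ± 0.23 between dexamethasone and vehicle (adjusted p = 0.488) and by 0.39 ± 0.23 between both hormones and dexamethasone (adjusted p = 0.607). Without dexamethasone 2 these were -0.17 and 0.19, and without dexamethasone 3 they were -0.58 and 0.6. With median scaling the first was -0.08.

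The genes whose levels followed Mt2A, Slc30a2 and Mt1 most closely were listed by Pearson correlation over the 9 arrays, as a description. For Mt2A, among 10427 genes, these were Eif4ebp1 (r = 0.985), Mapre2 (r = 0.984), Pigu, Tomm40 and Slc15a4 (each r = 0.979). Eif4ebp1, a repressor of cap-dependent translation, differed by 2.47 for dexamethasone against vehicle and by -1.76 for both hormones against dexamethasone. Mapre2, a microtubule end-binding protein, differed by 1.44 and -1.09. For Slc30a2, by its probe set 1398264_at, they were Psmc5 (r = 0.971), Fah (r = 0.966), Mapre2 (r = 0.966), Kcnq5 (r = 0.961) and Nol3 (r = 0.96). Fah, the last enzyme of tyrosine breakdown, differed by 2.98 and -2.81, and Psmc5, a proteasome subunit, by 0.71 and -0.7. Mapre2 was on both lists. For the dim Mt1 probe set they were Zfp972 (r = 0.926), Klf11 (r = 0.918), Ncl (r = 0.91), Paox (r = 0.882) and Poc1b (r = 0.875), and none of these was on the Mt2A list. All these correlations share the same 9 arrays, the same groups and the same array sets.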

How the data were processed

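The authors deposited 1 linear intensity for each of 31099 probe sets on each of 9 arrays; the signal algorithm is not given in the sources used here. RNA was labelled with biotin for a rat genome array, per the labels' protocols. Without 57 control probe sets, the intensities were taken as log2(intensity + 16) and quantile normalized, because array medians spanned 2.36 on the log2 scale. Probe sets under the 40th percentile of the mean (5.75) were left out. Group means over all 9 arrays were fitted with limma 3.58.1 in R 4.3.3 (lmFit, eBayes), with Benjamini-Hochberg adjustment over 18625 probe sets and a threshold of 0.05; the fit was tested on simulated data. The number of arrays limits the precision.

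Symbols came from the platform annotation, updated by gene identifier to RefSeq (GRCr8). Of the probe sets, 20826 had 1 symbol, 436 several and 9780 none. A listed gene is represented by its brightest probe set. Every member is named, and of each list the genes that passed, or otherwise up to 4 with the lowest p in a comparison; some of these are left to the counts. Likeness names the 5 genes with the highest correlation. The members and lists were chosen with earlier results of these data known. Figures were drawn with matplotlib 3.10.9.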

Additional observations from a re-analysis of the deposited data

How the results depend on the processing

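Over 20 other settings, the differences of Mt2A kept their sign, from 3.01 to 3.96 for dexamethasone against vehicle and from -3.02 to -2.07 for both hormones against dexamethasone. Those of Slc30a2 at 1398264_at ran from 1.15 to 1.89 and from -1.9 to -1.15, and at 1378896_at from 2.25 to 4.81 and from -2.97 to -1.58, over the 19 settings that kept these probe sets; the filter at the 60th percentile dropped both. No tested probe set of Slc30a4, Slc39a14 or Mtf1 passed in any setting.

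The number of probe sets that passed for dexamethasone against vehicle, 196, became 54 with a pseudocount of 1, 414 with 64, 48 without the filter, 469 with the 60th percentile, 510 with an intensity trend and robust variance, 123 with the 6 arrays of the 2 groups, and 444 without array set C. For both hormones against dexamethasone, 21 became 5, 102, 0, 83, 149, 0 and 0 in the same order, and 3 with median scaling. The replicate block left 13 and 0; the numbers were not taken to pair the arrays, since the labels give no shared source and correlations of deviations were not all over 0.1. They ran from -0.201 to 0.056 for replicate 1, from 0.143 to 0.367 for replicate 2 and from 0.0564 to 0.587 for replicate 3. The numbers largely coincide with the array sets: all replicate 1 arrays lie in set A, all replicate 2 arrays in set B, and the 0.587 is the pair in set C. With the array set as a block the counts were 179 and 22, and with cyclic loess they were 188 and 25. Leaving out 1 array gave 1 to 333 and 0 to 68. The first count was 2, 1 and 1 without vehicle 1, 2 and 3, and 3, 10 and 333 without dexamethasone 1, 2 and 3. It was 49 without both hormones 2. The second count was 5, 1 and 0 without vehicle 1, 2 and 3, 0, 0 and 68 without dexamethasone 1, 2 and 3, and 0 without any both-hormones array. For both hormones against vehicle 0 passed in every setting. The cause of these changes was not tested.

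Differences that turned sign did not pass in any setting. For dexamethasone against vehicle, Slc39a14 at 1373984_at gave 0.04 and Slc30a9 gave 0.05 with median scaling. Leaving out 1 array gave -0.3 to 0.02 for Slc39a14 at 1373984_at, -0.47 to 0.05 at 1382919_at, and -0.44 to 0.6 for Mt3. For both hormones against dexamethasone, Mtf1 at 1390574_at gave 0.24 without array set C. Leaving out 1 array gave -0.06 to 0.37 for Slc39a14 at 1373984_at, -0.23 to 0.11 for Mtf1 at 1390574_at, -0.07 to 0.3 for Slc39a13 and -0.06 to 0.45 for Selenoh. For both hormones against vehicle, Slc39a14 at 1373984_at gave -0.18 with the array set as a block and -0.2 without array set C. Mtf1 at 1390574_at gave 0.07 with median scaling and without array set C, and Mtf1 at 1377124_at gave -0.03 without array set C. Leaving out 1 array gave -0.2 to 0.23 for Slc39a14 at 1373984_at, -0.33 to 0.19 at 1382919_at, -0.23 to 0.07 for Mtf1 at 1390574_at and -0.03 to 0.23 at 1377124_at.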

Other observations

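Genes that handle copper and iron, the metals that share carriers and binding proteins with zinc, were counted in the same way. Of 8 copper genes all were tested, 0 passed with limma for dexamethasone against vehicle or for both hormones against dexamethasone, 0 had an unadjusted p under 0.05 in either, and their medians were 0 and -0.06. Slc31a2, a low-affinity copper transporter, differed by 0.59 ± 0.33 with dexamethasone (adjusted p = 0.444), with 1.2 in array set A and 0.02 in set B, and by 0.27 without dexamethasone 1. Of 10 iron genes 7 were tested and 0 passed in either comparison, 2 had an unadjusted p under 0.05 in each, beside 17.6% and 11.7% of all genes, with medians of -0.24 and 0.37.

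Cp, the copper-carrying ferroxidase ceruloplasmin, read 7.9, 7.18 and 7.45 with vehicle, 9.56, 9.07 and 8.74 with dexamethasone, and 7.7, 8.76 and 8.64 with both hormones. All dexamethasone arrays lay above all vehicle arrays, as for 15.2% of all genes. The difference was 1.61 ± 0.34 with an adjusted p of 0.063 in limma, and it passed in 4 of 20 other settings, with adjusted p from 0.0257 to 0.218. Tfrc, the transferrin receptor, differed by -1.16 ± 0.45 for dexamethasone against vehicle (adjusted p = 0.258) and by 1.04 ± 0.45 for both hormones against dexamethasone (adjusted p = 0.444). Both values of Tfrc rest largely on dexamethasone 1: they were -0.58 and 0.46 without it. Within array sets the first was -2.36 in A and -0.13 in B, and the second 2.46 in A, -0.19 in B and 0.85 in C. Hmox1, which frees iron from haem, differed by 0.6 ± 0.24 for both hormones against dexamethasone (adjusted p = 0.409).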
